A study of Mus musculus with 4 samples.

Results

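In CD4+ CD8+ double positive (DP) thymocytes of L-DKO mice, E2A peaks often lay close together, and 3321 of the 17532 peaks of the DP list (18.9%) fell into 495 dense clusters. The clusters were chosen by position. Peaks of the DP list were chained along each chromosome when the gap between the end of one and the start of the next was at most 12500 bp, and every peak in a chain of 5 or more was taken as a member. The remaining peaks were isolated, with no neighbor within that distance (6718 peaks, 38.3%), or lay in chains of 2 to 4 (7493 peaks, 42.7%). No filter was applied to low values, so all 3321 members are counted below. Since the positions of the DP peaks chose the members, and their scores come from the same library, the number, density and scores of DP peaks are given as descriptions.

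The libraries came from the thymus of Id2 f/f Id3 f/f LckCre+ mice (L-DKO) of 3 to 5 weeks of age, on a C57BL/6 background or as hybrids of C57BL/6 and 129. All groups therefore lack Id2 and Id3 in cells in which the Lck promoter drives Cre, and no wild type library was used. DP cells were sorted as CD1dTet- CD4+ CD8+ and invariant natural killer T (iNKT) cells as CD1dTet+ TCRβ+, each sample pooling cells of 3 to 4 mice. For each cell type there was 1 library precipitated with an E2A antibody and 1 input library, and 1 peak list, with 17532 DP peaks and 1516 iNKT peaks. Markers of the sorted cells cannot be checked from lists of peaks. Each peak has a position on mm9 and a MACS score, the negative log10 of its p-value times 10, so that no score was under 50. At the top of the DP list, 258 peaks had a tied score of 3100 and 26 scored higher, up to 3225. The depth of the libraries is unknown, and with 1 library per cell type no replicate gives an error: the 95% intervals below are for counting error only, peaks are not replicates, and no test between cell types was made.

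E2A, encoded by Tcf3, is a basic helix-loop-helix transcription factor that binds E-boxes as a dimer, and the Id proteins pair with E proteins and keep them from DNA. In thymocytes E2A is known for its roles in commitment to the T lineage, in rearrangement of T cell receptor (TCR) genes and in arrest before selection. Stretches of neighboring binding sites are often studied as extended regulatory domains, for which the same chaining distance is customary. The chains here rest on E2A peaks alone, and no mark of enhancer activity was analysed.

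The sequences below are examples from the highest peaks of 6 chains at T cell genes. Each window was placed around an E-box, wherever in the peak it lay, so the presence of one is no finding. Each is 60 bases of the plus strand of NCBIM37 (mm9), with in capitals the E-box nearest to the midpoint of the DP peak, which is CAGGTG, its reverse complement CACCTG, or CAGCTG. The chains at Tcf7 and Cd247 appear with a pair of peaks that both scored 3100, one of which an iNKT peak overlapped and the other of which none did.
Cd8b1 and Cd8a, left end of the chain, chr6:71252522-71252581: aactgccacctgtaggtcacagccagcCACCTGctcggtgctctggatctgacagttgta
Tcf7, upstream, with an iNKT peak, chr11:52127583-52127642: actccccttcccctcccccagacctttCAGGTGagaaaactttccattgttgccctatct
Tcf7, far upstream, no iNKT peak, chr11:52155057-52155116: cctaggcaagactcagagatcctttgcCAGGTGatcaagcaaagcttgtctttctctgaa
Id3, upstream, with an iNKT peak, chr4:135645660-135645719: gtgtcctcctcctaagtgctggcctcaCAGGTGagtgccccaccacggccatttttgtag
Cd247, intron, no iNKT peak, chr1:167733285-167733344: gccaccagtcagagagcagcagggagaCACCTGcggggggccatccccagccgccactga
Cd247, intron, with an iNKT peak, chr1:167774681-167774740: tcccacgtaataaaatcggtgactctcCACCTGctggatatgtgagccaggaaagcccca
Cd4, upstream, with an iNKT peak, chr6:124850703-124850762: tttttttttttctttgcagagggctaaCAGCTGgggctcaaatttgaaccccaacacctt
Rag1 and Rag2, upstream of Rag1, no iNKT peak, chr2:101490176-101490235: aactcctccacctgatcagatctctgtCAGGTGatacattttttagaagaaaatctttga
All 8 peaks scored 3100 in the DP list. None of the 8 windows overlaps an annotated exon. The peaks held between 6 and 15 sites of CAGGTG or CAGCTG over their whole length, so that the E-box shown is one of several. The E-box shown lay 4 to 99 bp from the midpoint of its peak in 6 windows, but 168 bp from it at Tcf7 with an iNKT peak and 211 bp from it at Id3. Over all members, 40.8% had CAGGTG in the 200 bp at the midpoint.

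Most chains were short, and a few extended over 100 kb. The median chain held 6 peaks (range 5 to 24) and spanned 29.6 kb (7.70 to 117 kb), of which peaks covered 7.82 kb. Chains of 10 or more peaks numbered 54, chains of 15 or more 9 and chains of 20 or more 3. Together the 495 chains spanned 16.2 Mb, or 0.615% of the assembly, and 27.7% of that length was covered by peaks. The gaps between neighboring members had a median of 3.16 kb. Of the 2826 gaps, 656 (23.2%) were under 1 kb, a distance at which 1 broad region can be called as several peaks. When DP peaks less than 1 kb apart were merged before chaining, 318 chains remained. The widest gap inside a chain was 12.49 kb, and the narrowest gap over the limit between any neighboring DP peaks was 12.504 kb. The 209 chains with exactly 5 peaks, just inside the rule, had a median highest score of 1048 and a median span of 24.1 kb, against 902 and 17.2 kb for the 353 chains of 4 peaks just outside it.

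**Figure D1:**
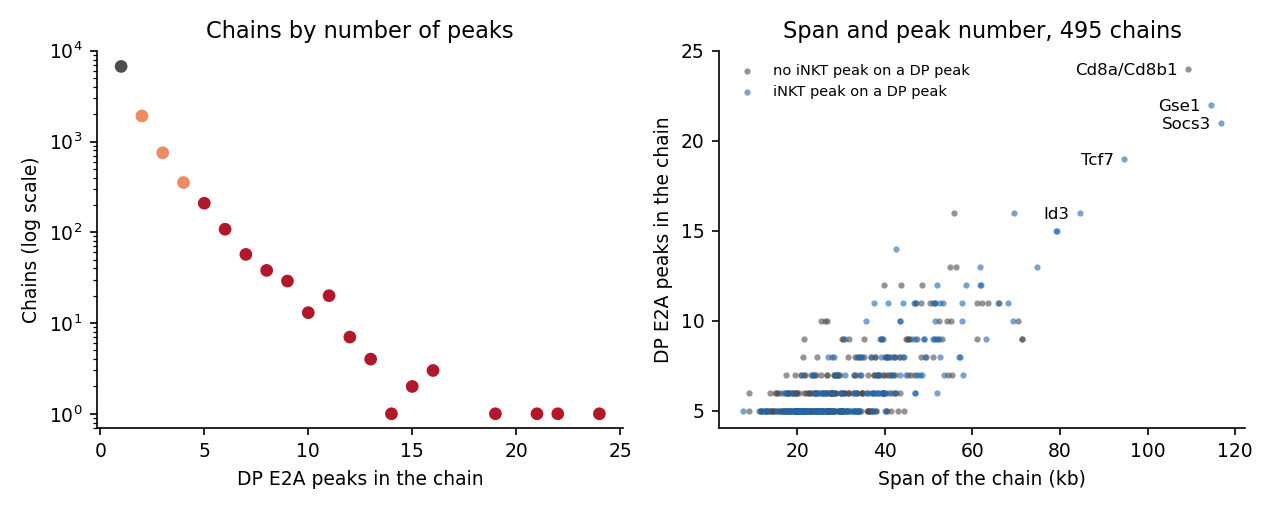
Left, number of chains (log scale) by number of DP E2A peaks they hold, with isolated peaks in gray, chains of 2 to 4 in orange and chains of 5 or more in red. Right, span in kb against number of peaks for the 495 chains, each point 1 chain, in blue where an iNKT peak overlapped at least 1 of its DP peaks: chain numbers fell from 6718 isolated peaks to single chains of 19 to 24 peaks, and the 5 chains with most peaks are named.

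A chain was typically 1 high peak among lower ones. The highest peak had a median score of 1418, the second 556, the third 263 and the fourth 153, and the highest held a median of 46.5% of the summed score of its chain. A peak with a score of 1000 or more occurred in 325 chains (65.7%), a peak of 3100 or more in 106 (21.4%), and a peak under 100 in 431 (87.1%). No chain lacked a peak of 100 or more. Members made up 126 of the 284 DP peaks with a score of 3100 or more (44.4%), chains of 2 to 4 another 123 and isolated peaks 35. The median score was 185 for members (175 to 199.02), 157 in chains of 2 to 4 and 115 for isolated peaks (112 to 118), and the median width was 1129, 1013 and 905 bp. With peaks ranked from 1 for the lowest score to 17532 for the highest, the ranks of a chain summed to a median of 59832 (16709 to 247897).

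The chain with the most peaks and the highest summed rank (247897) and summed score (19850) lay over Cd8b1 and Cd8a, which encode the chains of the CD8 coreceptor that marks DP cells. Its 24 peaks ran from 71251218 to 71360395 on chromosome 6 and spanned 109 kb. It also held the start site of Smyd1, a muscle gene beside Cd8b1, and ended in an intron 30.7 kb from the start site of Rmnd5a. Of the 24 peaks, 9 scored 1000 or more and 9 scored under 100. The 2 highest, at 3100, were a peak of 2676 bp at the left end and a peak of 8994 bp over the start site of Cd8a. The peak at the start site of Cd8b1 scored 1321, and in the interval between both genes the highest peaks scored 1836 and, 20.3 kb upstream of Cd8a, 1698. One member, in an exon of Cd8b1 with a score of 1648, had repeated sequence at its midpoint. Words of 31 bases in the 200 bp there occurred a median of 394.5 times in the assembly. No iNKT peak was called anywhere in this chain.

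Tcf7, which encodes the T lineage transcription factor TCF-1, had the fourth largest chain, with 19 peaks over 94.7 kb of chromosome 11 (52062927-52157603). The gene lies on the minus strand, and 12 of the peaks were intergenic, most of them upstream. The start site itself had low peaks, with scores of 218 and 74.8, while an intron peak 7.97 kb into the gene scored 2079. Both peaks of 3100 lay upstream, one 30.8 kb from the start site of Tcf7 and the other nearer to the next gene, 19.3 kb from the start site of Vdac1. The iNKT list had 1 peak in the chain, with a score of 432, on the one nearer to Tcf7. Peaks of 1390 and 1100 on either side of it, at 9.70 and 35.3 kb upstream, had no iNKT peak.

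The chain at Id3, the inhibitor of E proteins that these mice lack, held the most iNKT-overlapped peaks of all 495 chains. It had 16 DP peaks over 84.5 kb of chromosome 4 (135622086-135706625), 15 of them intergenic and all but 3 upstream of the gene. Peaks that an iNKT peak overlapped scored 1640, 3100, 533 and 343 in the DP list, and the iNKT peaks on them scored 179, 375, 132 and 57.3. All 4 lay upstream, the last of them 15.8 kb from the start site of Id3. DP peaks of 1908 and 1314 among them had no iNKT peak, and the only peak within the gene scored 115. Id3 is itself floxed in these mice, and the sources used here do not give the deleted interval. Id2, the other deleted gene, was overlapped by no chain. A chain of 13 peaks with 2 iNKT peaks lay far upstream of it, at 25893404 to 25955039 on chromosome 12. Its peaks were 113 to 174 kb from the start site of Id2. Another chain of 5 peaks with 1 iNKT peak lay between, at 25849519 to 25877741 (both named after their values were seen).

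The other chains among the 10 with most peaks were at genes with varied roles. Gse1 had 22 peaks over 114 kb, 21 of them intronic, with a highest score of 3164 and 2 iNKT peaks, and a readthrough gene model that contains Gse1 is also annotated there. The longest chain, of 117 kb with 21 peaks and 3 iNKT peaks, held the start sites of Socs3, an inhibitor of cytokine signaling, Pgs1 and Tha1, and 18 of its peaks were intergenic. Other chains of 16 peaks lay within Prex1, a Rac exchange factor, and within Sept9, a septin. Chains of 15 peaks covered Sema4d, a semaphorin of lymphocytes, and a gene-dense interval with Armc7, Atp5h, Ict1, Kctd2 and Slc16a5. The tenth, of 14 peaks, lay at Ccnd3, the cyclin D3 of thymocyte proliferation, and Taf8. The 5 chains with the highest summed ranks (Cd8b1 and Cd8a, Gse1, Socs3, Tcf7 and Id3) were also the 5 longest.

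**Figure D2:**
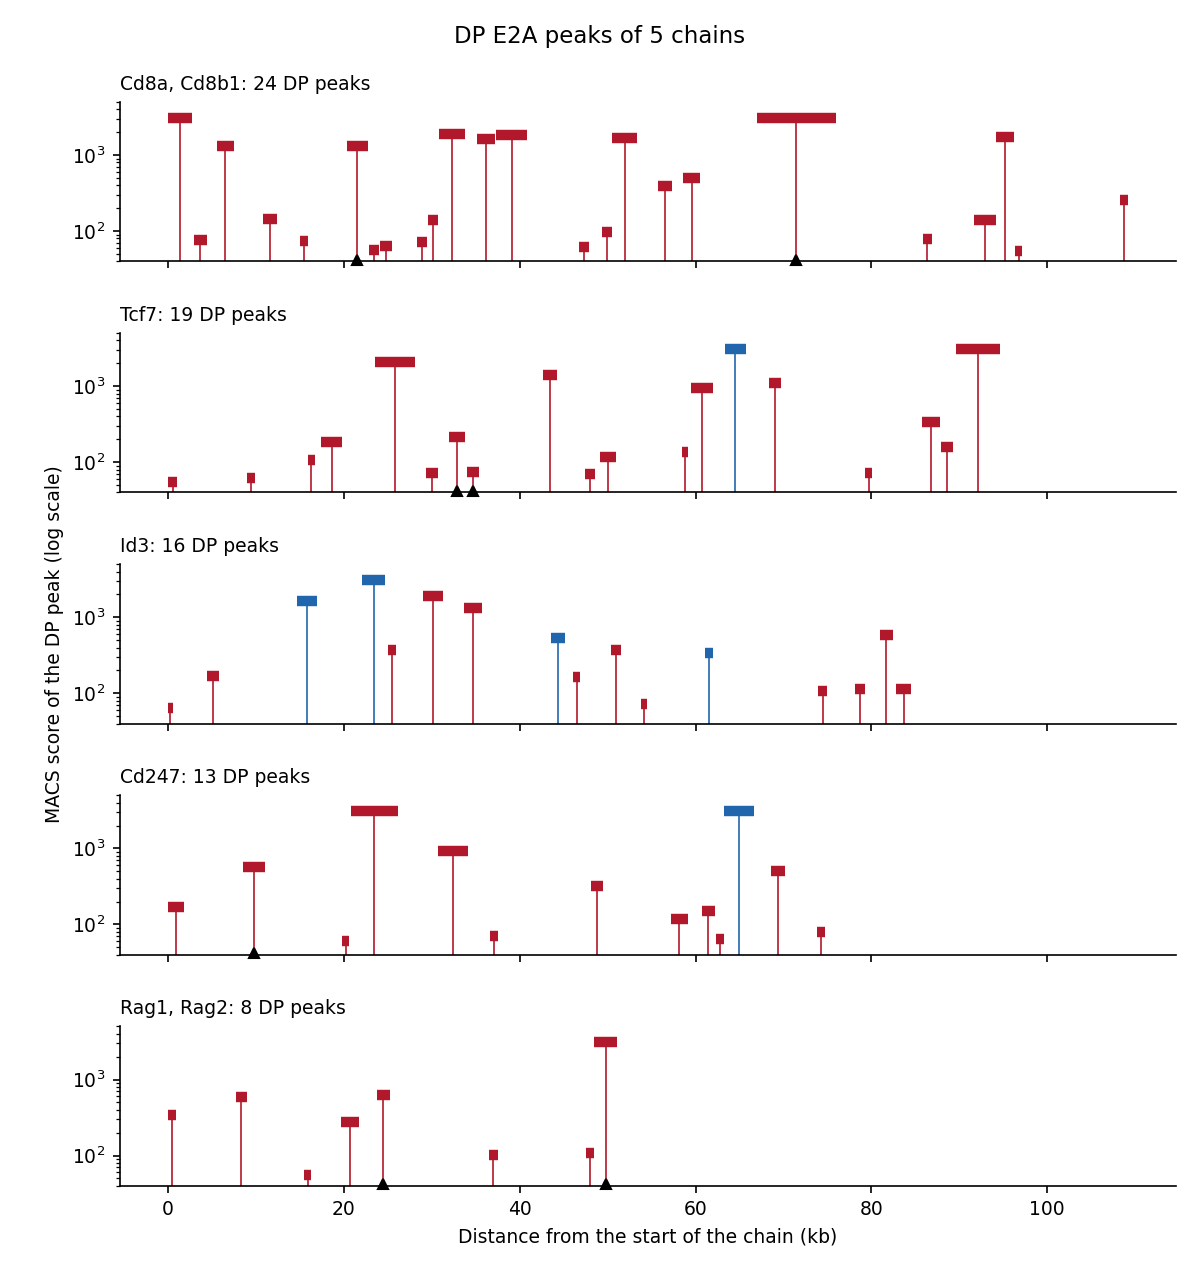
Each panel is 1 chain, with the distance from its start in kb on the horizontal axis and the MACS score of each DP peak on a log scale, bars drawn over the width of the peak. Blue peaks were overlapped by an iNKT peak, red peaks were not, and triangles mark peaks within 1 kb of the start site of a protein-coding gene: no peak is blue at Cd8a and Cd8b1 (24 peaks) or at Rag1 and Rag2 (8 peaks), 1 is at Tcf7 and at Cd247, and 4 are at Id3.

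Chains overlapped 569 of 22367 protein-coding genes, 2.54% of all, and the start sites of 357 of them, 1.60%, lay inside a chain. Among 14 lists of genes, the share was highest for a list of CD3 chains, the CD4 and CD8 coreceptors and other T cell surface proteins. Chains covered 11 of the 13 annotated genes of that list (84.6%, 57.8 to 95.7): Cd2, Cd247, Cd27, Cd3d, Cd3e, Cd3g, Cd4, Cd5, Cd8a, Cd8b1 and Thy1. All 11 had their start site inside. They lay in 8 chains, since Cd3d, Cd3e and Cd3g shared 1 and Cd8a and Cd8b1 another, and the intervals here and for the other lists count such linked genes as independent. Cd28 and Cd6 were not covered. The share over genes of the same length classes was 2.60%. For the other lists of T cell genes it ran from 2.36% (iNKT lineage) to 3.91% (transcription factors). Over the 9 lists of T cell genes together, chains overlapped 40 of 130 genes (30.8%, 23.5 to 39.2), and over 5 lists of other genes, for B cells, myeloid cells, neurons, hepatocytes and housekeeping, 1 of 74 (1.35%, 0.239 to 7.26), which was Itgam. Fewer genes of the other lists held any DP peak. Among genes with at least 1 DP peak in the body, the shares were 40 of 98 (40.8%) for the 9 lists, 1 of 14 for the 5 lists and 541 of 5392 (10.0%) for all genes. The lists were written with earlier results of these data known, and their counts are descriptions.

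**Figure D3:**
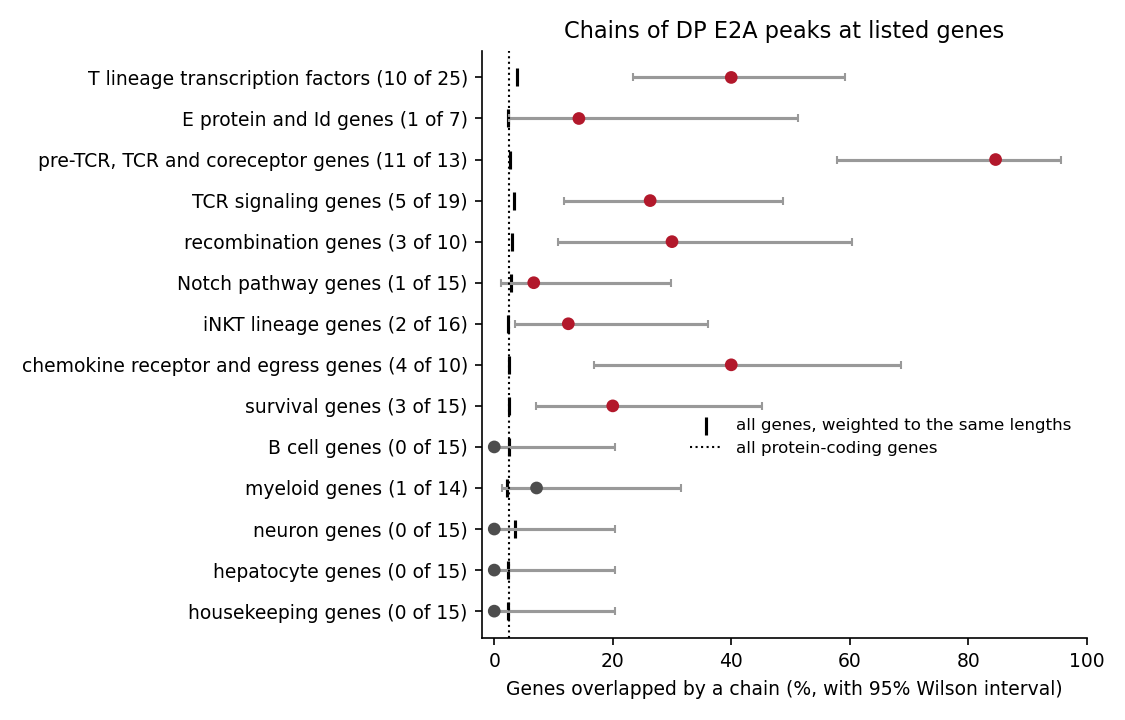
Share of the genes of each list (%) that a chain overlapped, with 95% Wilson intervals, T cell lists in red and other lists in gray. Vertical ticks give the share over all genes weighted to the same length classes and the dotted line the share over all protein-coding genes, 2.54%: the list with CD3 chains and coreceptors stands at 84.6%, and 4 of the 5 gray lists at 0.

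At the genes of the TCR complex, the chain of Cd247, which encodes the zeta chain of CD3, had 13 peaks over 74.7 kb of chromosome 1 (167709739-167784417), 11 of them in introns. Both of its peaks of 3100 were intronic, 14.4 and 55.8 kb from the start site, and an iNKT peak with a score of 175 overlapped the second alone. The genes Cd3g, Cd3d and Cd3e shared 1 chain of 10 peaks on chromosome 9 (44762086-44831325), in which the peak at the divergent start sites of Cd3g and Cd3d scored 2314 and carried an iNKT peak of 147. A second iNKT peak, of 56.6, lay on a DP peak of 1200 in Ube4a. At Cd4, a chain of 6 peaks whose lowest score was 216 had its highest, of 3100, between Cd4 and Lag3, with an iNKT peak of 159, and an intron peak of 2406 without one. Chains at Cd5 (10 peaks, highest 1910) and Cd2 (9 peaks, highest 1245), receptors that modulate the TCR signal, had no iNKT peak. Those at Cd27 (11 peaks) and Thy1 (9 peaks) had 1 each, with scores of 226 and 86.4.

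Of 25 annotated T lineage transcription factors, chains overlapped 10 (95% interval 23.4 to 59.3%), which were Ets1, Fli1, Foxp1, Ikzf1, Ikzf3, Lef1, Nfatc3, Satb1, Sox4 and Tcf7, but a start site lay inside for 4. In and around Ets1 and Fli1, neighboring genes for Ets factors on chromosome 9, lay 4 chains. One of 5 peaks within Fli1 and one of 9 within Ets1 (highest score 1589) had no iNKT peak. The highest of the 13 DP peaks in the Ets1 gene, at 3100, and its 1 peak with an iNKT peak were not among those 9. Another 2 chains, of 6 peaks each, lay outside both genes. One was between them, at 32413801 to 32428675, with no iNKT peak. The other was at 32722979 to 32749623, well past the end of Ets1 at 32565405, with 1 of 282 (the last 2 named after their values were seen). Ikzf1, the gene of Ikaros, had 5 intronic peaks, 2 of them with iNKT peaks. At Sox4 a peak of 3100 made up 79.4% of the summed score of 6, and carried the only iNKT peak, of 186. Runx1, although 14 DP peaks lay in its 225 kb, and Bcl11b, with 8 in 93.2 kb, had no chain of 5.

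Among 10 genes of recombination, chains overlapped 3, Rag1 and Rag2, whose products cut receptor genes, and Dntt, the terminal transferase that adds nucleotides at the joints. The chain of Rag1 and Rag2 had 8 peaks over 51.1 kb of chromosome 2 (101440466-101491556). Its peak of 3100 lay at the start sites of Rag1 and a divergent gene, B230118H07Rik, the peak at the start site of Rag2 scored 622, and none had an iNKT peak. Dntt had 6 peaks, the highest of 2325, and no iNKT peak. Of 19 TCR signaling genes 5 were overlapped, among them Lat, an adaptor of the TCR, whose chain of 7 peaks had 1 iNKT peak, of 130, and Ptprc, the phosphatase CD45, whose chain of 6 had none. Of 10 chemokine receptor and egress genes 4 were overlapped. Ccr9, Cxcr4 and Klf2 had 1, 1 and 2 iNKT peaks in chains of 6, with highest iNKT scores of 257, 65.8 and 510, and Ccr7 had none in 9. Of 15 survival genes, the chains of Bcl2l1 (11 peaks, 2 of them at 3100) and Bbc3 (5 peaks) had no iNKT peak, and that of Mcl1 (5 peaks) had 2. The chain of Mcl1 also overlapped Adamtsl4, and its 1 peak within Mcl1 scored 140 and had no iNKT peak.

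Genes tied to the iNKT lineage were overlapped in 2 of 16 cases (interval 3.498 to 36.0%): Nr4a1, an early target of TCR signaling, with 12 peaks, and Ifngr1, the interferon gamma receptor chain, with 9. Neither chain had an iNKT peak, although the chain of Nr4a1 held DP peaks of 3100 and 2443. That chain also overlapped Grasp, and only 2 of its 12 peaks lay in Nr4a1, with a highest score of 142. In Ifngr1 lay 2 of the 9 peaks, with a highest score of 253. Of 15 Notch pathway genes, Notch1 was overlapped (6.67%, 1.19 to 29.8), and of 7 E protein and Id genes, Id3 (14.3%, 2.57 to 51.3). Over genes of the same length classes the shares were 2.84% and 2.39%. All 36 chains that overlapped a gene of the 9 lists had a median of 7.5 peaks and a median highest score of 2306, against 6 and 1345 for the other 459. Of the 36, 16 had an iNKT-overlapped peak (44.4%, 29.5 to 60.4), and of the 459, 171 (37.3%, 32.95 to 41.8). These intervals overlap.

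An iNKT peak overlapped at least 1 DP peak in 187 of the 495 chains (37.8%, 33.6 to 42.1). The share was 34.0% in chains of 5, 33.3% in chains of 6 and of 7, 43.8% in chains of 8 to 10 and 63.4% (48.1 to 76.4) in the 41 chains of 11 or more, beside 5.73% of isolated peaks and 21.5% of chains of 4. A chain with more peaks has more that can be overlapped. Per peak, the shares were closer: 7.08% of members (235 peaks, 6.253 to 7.999), 5.75% of peaks in chains of 2 to 4, 5.73% of isolated peaks and 5.99% of all DP peaks. By size, the share of peaks was 8.04% in chains of 5, 6.17% in chains of 6 and 6.52% in chains of 7. It was 6.47% in chains of 8 to 10 and 7.49% in chains of 11 or more. The difference between members and isolated peaks was 1.35 percentage points (0.337 to 2.41), and without peaks within 1 kb of a start site it was 1.04 points, with an interval that includes 0 (-0.0633 to 2.20). Chains with an iNKT peak had a median highest DP score of 2697, those without one 1005, and both had a median of 6 peaks. Of the 238 iNKT peaks within the spans of chains, 2 lay off the DP peaks. The iNKT peaks on members had a median score of 100 (90.7 to 111), those on isolated DP peaks 87.3 (81.9 to 93.9), and those on no DP peak 59.2 (57.9 to 61.6).

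Within a chain, the iNKT peaks were few and lay most often, but not always, on the highest DP peak. In 146 of the 187 chains exactly 1 DP peak was overlapped (78.1%), in 35 exactly 2 and in the other 6 at least 3. In none of the 187 were all overlapped. Besides Id3 with 4, the chains with 3 were those at Socs3, Pgpep1l, Tomm20, Gramd3 and Syt13. A DP peak with the highest score of its chain, ties included, was overlapped in 144 of the 187 (77.0%). Over all 495 chains an iNKT peak lay on 28.3% of the highest peaks (24.5 to 32.4), on 10.7% of the second, 4.44% of the third, 1.41% of the fourth and 0.969% of the 1341 lower ones.

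**Figure D4:**
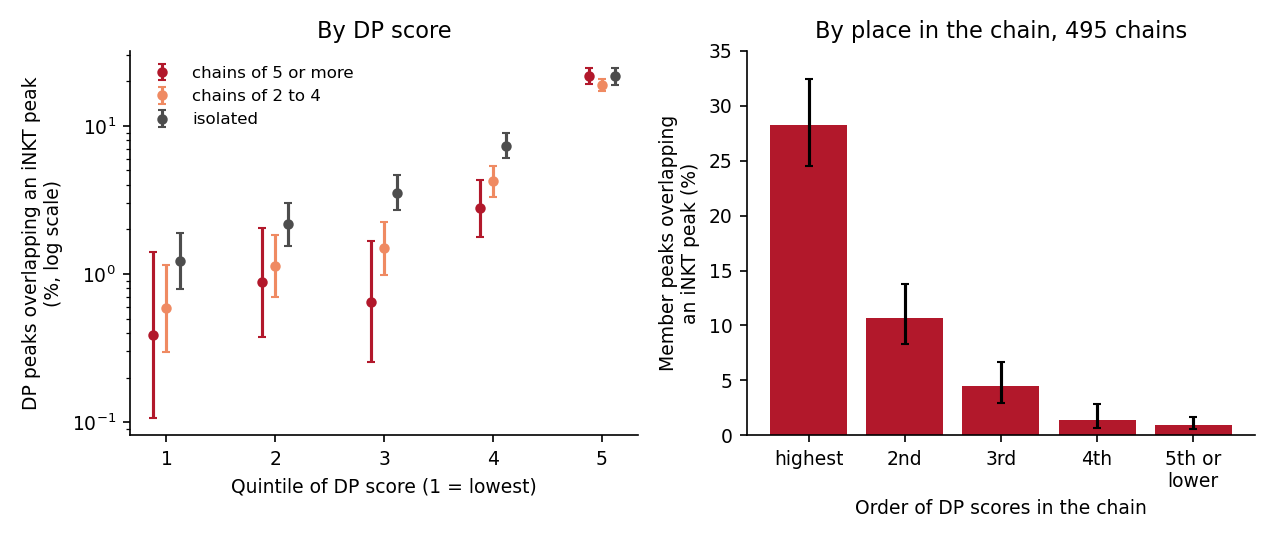
Left, percentage of peaks with an overlapping iNKT peak (log scale) in each quintile of the DP score, 1 the lowest, for peaks in chains of 5 or more, in chains of 2 to 4 and isolated, with 95% Wilson intervals. Right, the same share (%) over member peaks by their order of DP score within the chain: in quintiles 3 and 4 the members lie below the isolated peaks, in quintile 5 they are level, and the highest peak of a chain reaches 28.3%.

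Because the share rose with DP score, members and isolated peaks were also compared within quintiles of the scores of all DP peaks, numbered from 1 for the lowest to 5. In quintile 5 (scores from 477 up), the shares were 21.7% of 943 members and 21.6% of 872 isolated peaks, a difference of 0.179 points (-3.62 to 3.96). In quintile 4 (193 to 477), they were 2.77% of 685 and 7.34% of 1280, a difference of -4.57 points (-6.42 to -2.57), and in quintile 3 (107 to 193) 0.650% and 3.53%, or -2.88 points (-4.05 to -1.57). In quintiles 1 and 2 the members were also lower, 0.390% against 1.23% and 0.885% against 2.17%, with intervals of the difference that include 0. Peaks in chains of 2 to 4 were in between in quintiles 1 to 4, at 4.22% in quintile 4 and 1.49% in quintile 3. At intermediate scores a DP peak in a dense cluster coincided with an iNKT peak less often than an isolated one.

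In quintile 5 the members divided by their place in the chain. Of 430 members that were the highest of their chain, 31.9% overlapped an iNKT peak (27.6 to 36.4), and their median DP score was 1674. Of 513 others, with a median score of 865, 13.3% did (10.6 to 16.5), below the 21.6% (19.0 to 24.4) of isolated peaks, whose median score in that quintile was 840. With members under 1 kb from another DP peak left out, 13.8% of 325 others overlapped one (10.5 to 18.0). This division was chosen after the data were seen. The differences in quintiles 3 and 4 were of similar size without peaks at start sites (-3.24 and -4.59 points), without peaks of repeated sequence (-2.69 and -4.32) and without peaks under 1 kb from another (-2.79 and -4.63), all 3 chosen after the data were seen. Members were wider than isolated peaks in each quintile (in quintile 4, medians of 1212 and 1084 bp). Within quintiles of width, the share of members with an iNKT peak was below that of isolated peaks in quintiles 1 to 4 (1.04% against 2.41%, 0.542% against 3.55%, 2.19% against 5.22% and 4.50% against 8.40%). In width quintile 5 it was 17.3% (15.2 to 19.7) against 14.02% (11.8 to 16.6), with median scores of 827 and 521.

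Members lay at start sites less often than isolated peaks and in introns more often. The midpoint was within 1 kb of a protein-coding start site in 7.98% of members and 18.8% of isolated peaks, a difference of -10.8 points (-12.1 to -9.44), and in an intron in 49.0% and 38.2%, or 10.8 points (8.72 to 12.8). For exons (4.03% and 4.66%) and intergenic sequence (39.0% and 38.4%) the interval of the difference included 0 (-1.44 to 0.244 and -1.40 to 2.65 points). Of the chains, 241 (48.7%) had a start site inside, 164 (33.1%) lay over gene bodies without one, and 90 (18.2%) overlapped no protein-coding gene. Wholly within 1 gene were 144. iNKT-overlapped peaks occurred in 33.6% (27.9 to 39.8), 43.9% (36.5 to 51.6) and 37.8% (28.5 to 48.1) of those 3 kinds. By chromosome, the members' share of DP peaks ran from 10.7% on X to 24.9% on chromosome 11.

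**Figure D5:**
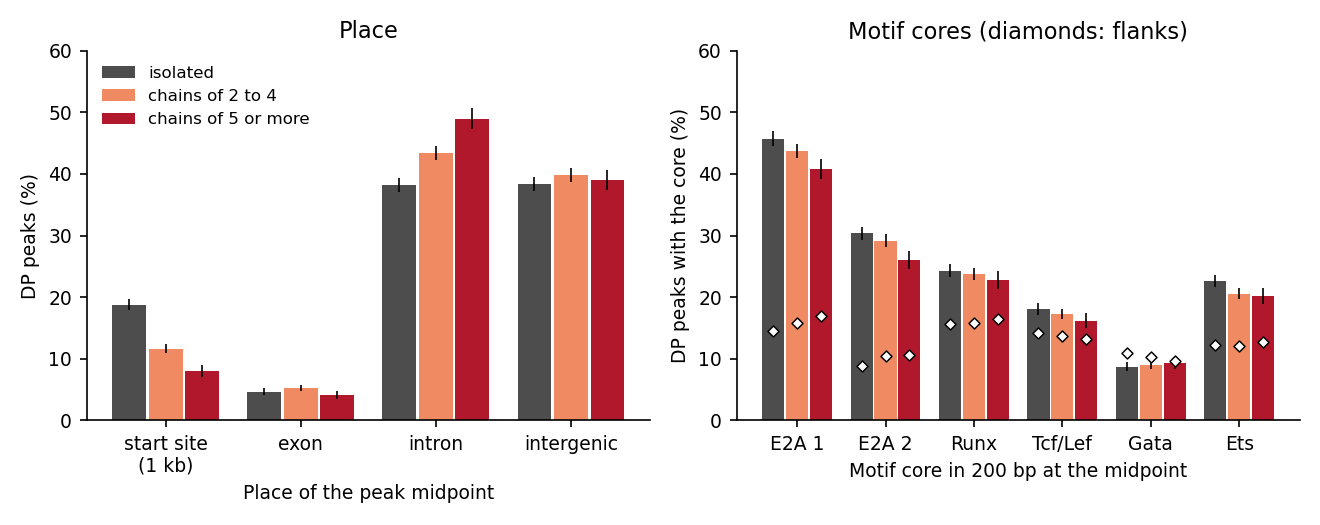
Left, share of DP peaks (%) by the place of the midpoint. Right, share (%) with a motif core in the 200 bp at the midpoint, E2A 1 being CAGGTG, E2A 2 being CAGCTG and the other cores as spelled in the text, with 95% Wilson intervals and with diamonds for flanks 2 kb away: members (red) have fewer start sites, 7.98% against 18.8% of isolated peaks (gray), and CAGGTG at 40.8% of midpoints against 45.7%, a difference that was not seen within quintiles 3 to 5 of peak width.

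The E-box CAGGTG, searched on both strands of mm9, stood in the 200 bp at the midpoint of 40.8% of members (39.1 to 42.5), 43.7% of peaks in chains of 2 to 4 and 45.7% of isolated peaks. In windows of the same length 2 kb away the shares were 16.9%, 15.9% and 14.5%. These flanks, also used below, were not cleared of DP peaks, and those of members can fall in a neighboring peak. CAGCTG, which is its own reverse complement and shares no site with CAGGTG, was at 26.02% of members and 30.3% of isolated peaks (-4.32 points, -6.16 to -2.45). The difference for CAGCTG was -11.0 points (-15.3 to -6.72) in score quintile 5, -5.63, -6.46 and -4.93 points in quintiles 2, 3 and 4 with intervals below 0, and 1.06 points (-3.12 to 5.49) in quintile 1. Within width quintiles CAGCTG was at fewer members than isolated peaks in all 5, from 25.1% (21.7 to 28.9) against 31.7% (29.4 to 34.1) in width quintile 2 to 28.6% against 29.96% in width quintile 1. In width quintile 3 it was at 29.5% (26.1 to 33.1) against 33.9% (31.4 to 36.5). In the 4 other than quintile 2 the intervals of the shares overlapped. Such overlap does not show equal shares, and no interval of the difference was taken within width quintiles. For CAGGTG within score quintiles, the share at members was lower in quintiles 3, 4 and 5 (-8.79, -8.51 and -7.94 points, with intervals below 0), while in quintiles 1 and 2 the interval of the difference included 0 (0.647 points, -4.15 to 5.55, and -4.53 points, -9.22 to 0.259). Within quintiles of peak width the difference did not persist in the wider peaks. In width quintile 1 CAGGTG was at 41.7% of members (36.8 to 46.7) and 47.5% of isolated peaks (45.2 to 49.8). In width quintile 2 it was at 43.8% (39.7 to 47.9) and 50.1% (47.5 to 52.6), and the intervals overlapped in both quintiles. In width quintiles 3 and 4 it was at 49.5% and 43.4% against 49.8% and 43.6%, and in width quintile 5 at 31.9% (29.1 to 34.8) against 30.1% (27.1 to 33.4). Over whole peaks, which are wider in chains, members were higher, 80.8% against 77.3%, at 1.53 and 1.72 sites per kb. The lists give no summit, and the midpoint need not be the position of highest signal. Only 4 chains had CAGGTG at every midpoint, and 25 had it at none. Cores of Ets (GGAAGT, 20.1% and 22.7%) and Tcf/Lef factors (TCAAAG, 16.2% and 18.1%) were also at fewer members than isolated peaks (-2.51 points, -4.18 to -0.801, and -1.87 points, -3.41 to -0.295). Within width quintiles the intervals of the shares of members and isolated peaks overlapped in all 5 for both cores. Members were lower in width quintiles 2 to 5 for both cores. In width quintile 1 they were higher, at 23.4% against 22.0% for GGAAGT and at 19.3% against 18.8% for TCAAAG. In score quintile 5 TCAAAG was at 14.4% of members (12.3 to 16.8) and 19.95% of isolated peaks (17.4 to 22.7), and these intervals were separate. In score quintiles 1 to 4 for TCAAAG, and in all 5 score quintiles for GGAAGT, the intervals of the shares overlapped. For the Runx core (ACCACA, 22.8% and 24.3%) the interval of the difference over all peaks included 0 (-3.21 to 0.305 points). In score quintile 5 it was at 20.4% of members (17.9 to 23.0) and 27.1% of isolated peaks (24.2 to 30.1). In score quintiles 1 to 4 and in all 5 width quintiles the intervals of its shares overlapped. In width quintile 3 members were higher, 28.2% against 23.8%. The core bound by factors of the GATA family, TTATCT, was at 9.27% and 8.72%, with an interval of -0.620 to 1.77 points. The flanks of members held these 4 cores at 12.8%, 13.2%, 16.4% and 9.71%. Median GC content at the midpoint was 51.0% for both, and in the flanks 47.8% for members and 45.3% for isolated peaks. Words of 31 bases at the midpoint occurred a median of more than 1 time in the assembly in 1.36% of members and 2.40% of isolated peaks.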

How the data were processed

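E2A ChIP-Seq peaks of L-DKO DP and iNKT thymocytes were analysed from the 2 lists that the authors deposited. Per the paper's methods and the submitters' processing notes, uniquely mapped reads (Bowtie 1.1.2, mm9) went into peak calling against input (MACS 1.4.2, defaults). The deposited score is the negative log10 of the calling p-value, times 10. Reads and inputs were not used here, and depth is unknown.

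DP peaks at most 12500 bp apart were chained, and chains of 5 or more kept. An overlap was at least 1 bp. Genes came from GENCODE M1 on NCBIM37, the assembly of mm9, on which no peak lay past a chromosome end. Repeated sequence was measured in the 200 bp at a peak's midpoint, as the median number of occurrences of its words of 31 bases. A peak counted as repeated where that median was over 1. Shares have 95% Wilson intervals, medians exact binomial intervals and differences Newcombe intervals. Chains named are the 10 with most peaks, the 5 highest in summed rank, length or iNKT peaks, and those at genes of 9 lists, some of which are not reported here. The members and lists were chosen with earlier results of these data known. Of 14 lists, 4 genes were not matched by name. On simulated data 7 of 7 checks recovered the known values. The tools were pandas 2.3.3, numpy 2.4.6, numba 0.67.0, statsmodels 0.14.6, scipy 1.17.1 and matplotlib 3.10.9 in Python 3.11.15.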

Additional observations from a re-analysis of the deposited data

How the results depend on the processing

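Of 62 values under other settings, 29 stayed within 1.5 times the count or within the interval given above, and 33 moved. None is a test, since there was 1 library per cell type, and no library could be left out. With a chaining distance of 6250 bp there were 196 chains and 1226 members (6.99% of DP peaks) at 177 genes, with CAGGTG at 38.4% of midpoints. With 25 kb there were 820 chains and 6357 members (36.3%) at 1341 genes, with a median score of 175. With at least 4 peaks there were 848 chains (26.996% of DP peaks) at 862 genes, 31.01% with an iNKT peak, and with at least 6 there were 286 (13.0%) at 366 genes. With DP peaks less than 1 kb apart merged, there were 318 chains and 2019 members (12.7%) with a median score of 221. With DP scores of 100 or more, there were 205 chains and 1288 members (11.7%) at 245 genes, with a median score of 371, CAGGTG at 38.9%, an iNKT peak in 47.8% of chains and on 10.2% of members. With iNKT scores of 100 or more, 21.0% of chains and 3.52% of members had one. Over whole peaks CAGGTG was at 80.8%, and with a start site inside, 357 genes counted. The share of chains with an iNKT peak was 36.2%, 38.3%, 40.6% and 39.3% with 6250 bp, 25 kb, at least 6 peaks and merged peaks. Without peaks of repeated sequence, and with an overlap of 50% of the smaller peak, no value moved. Of 18 values under alternatives chosen after seeing the data, 2 changed whether the interval of the difference in iNKT share excludes 0. Without peaks at start sites, the difference over all scores was 1.04 points (-0.0633 to 2.20) and in score quintile 1 -1.36 (-2.22 to -0.232). Without read depth, a missing iNKT peak may be a region below the calling threshold. No paired analysis was possible because there was 1 E2A library per cell type.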
